A study of Homo sapiens with 4 samples.

Results

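The genes described here encode histone methyl and acetyl modifying enzymes, chosen by symbol as every protein-coding gene whose name starts with KMT, KDM, KAT, HDAC, SIRT or SETD followed by a digit. The rule found 62 of the 25702 genes counted, of which 18933 are protein-coding in RefSeq. A further match in RefSeq, KDM4F, was not analysed here. The members comprised 25 writers (17 methyl writers of the KMT and SETD families and 8 acetyl writers of the KAT family) and 37 erasers (19 methyl erasers of the KDM family and 18 acetyl erasers of the HDAC and SIRT families). Their mRNA was measured by whole transcriptome sequencing (WTS) in K562, a human leukaemia cell line with erythroid and megakaryocytic potential that carries BCR::ABL1. K562 cells were transfected with LeGO-iG2, a plasmid that co-expresses green fluorescent protein, carrying the leukaemia fusion RUNX1::ERG or no insert (empty vector, EV), with no other treatment. Each group had 2 libraries, and the comparison asks which transcripts differ when the fusion is present. The groups are limited as a model in that a single cell line took up a plasmid by transient transfection, and no sorting of transfected cells before RNA extraction is described in the sources used here.

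Histone tails carry methyl groups on lysine and arginine and acetyl groups on lysine. Writers add them from S-adenosylmethionine or acetyl-CoA and erasers take them off, by flavin- or iron-dependent oxidation of methyl groups and by zinc- or NAD-dependent removal of acetyl groups. Lysine acetylation generally marks active promoters and enhancers, whereas the effect of methylation depends on the residue. Several of these genes are altered in blood cancers, KMT2A through translocations in acute leukaemia, and both RUNX1 and ETS factors work with acetyltransferases and deacetylase complexes in blood cells.

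The libraries held 59695387 and 73203412 counts in the EV group and 82352144 and 71582089 counts in the RUNX1::ERG group. ERG, which K562 cells barely transcribe, had 4 counts in each EV library and 80443 and 27218 counts with RUNX1::ERG, or 954 CPM (counts per 1000000 counts of the library, after TMM scaling) in replicate 1 and 379 CPM in replicate 2 of that group. These are counts at the ERG gene, and those of the RUNX1 portion of the fusion fall on RUNX1. RUNX1 was at 78.6 and 49.0 CPM in the EV libraries and at 786 and 400 CPM with RUNX1::ERG. The 10 erythroid markers of K562 cells were all detected and summed to between 12000 and 14200 CPM in every library. The sum over 10 megakaryocytic markers was 74.3 and 85.1 CPM in the EV libraries and 491 and 429 CPM with RUNX1::ERG, with 5 of the 6 tested markers called higher, and its part in the results given here was not tested. In bulk RNA, more cells with a transcript and more of it per cell cannot be told apart.

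The transcripts of these enzymes differed little between the groups. Of the 60 members that passed the filter on low counts, 2 passed the test in edgeR's quasi-likelihood fit over all 15394 genes (adjusted p under 0.05), HDAC5, which rose, and HDAC7, which fell. This was 3.33% of the tested members, beside 4.79% of all genes tested (3.64% higher and 1.15% lower), so the share called was near the background. DESeq2 called 5 members, where it called 7.29% of all genes it tested, limma voom called 2 (4.47% of all genes), and edgeR with no filter on low counts called 6 (7.38%). With 1 library left out, edgeR called 6 or 4 members when it was EV replicate 1 or 2 (7.68% and 8.32% of all genes tested), and 2 or 1 when it was replicate 1 or 2 of RUNX1::ERG (1.81% and 4.72% of all genes), so calls among members were most frequent where calls over all genes were also more frequent. At an unadjusted p under 0.05 there were 8 members (13.3%), beside 18% of all genes. The log2 fold changes of RUNX1::ERG over EV ran from -0.71 to 1.04 with a median of 0.03. Among members 33 were above 0 and 27 below it, and among all genes 7672 and 7722. For the members these changes were small. Their median size was 0.17 on the log2 scale, against 0.24 over all genes and 0.21 over genes that averaged 1 CPM or more. Estimates beyond 0.5 in size were found for 7 members (11.7%), against 24.9% of all genes and 17.4% of those with 1 CPM or more. Between replicates the median difference of members was 0.15 in the EV group and 0.20 with RUNX1::ERG, about the size of their change between groups. Over genes with 1 CPM or more it was 0.22 and 0.20. The libraries of the groups did not overlap for 29 members, 16 higher and 13 lower, or 48.3% of those tested, next to 47.1% of all genes. For 49 of the 60 members the 95% interval of the change lay within a 1 log2 unit in either direction. The other 2 members, KDM4E and the Y-linked KDM5D, had no count in any library, which allows at most 0.0364 to 0.0503 CPM (3 counts of the library total, counting error only), or 0.0729 to 0.1005 CPM (6 counts) if both mates of each read pair were counted.

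**Figure D1:**
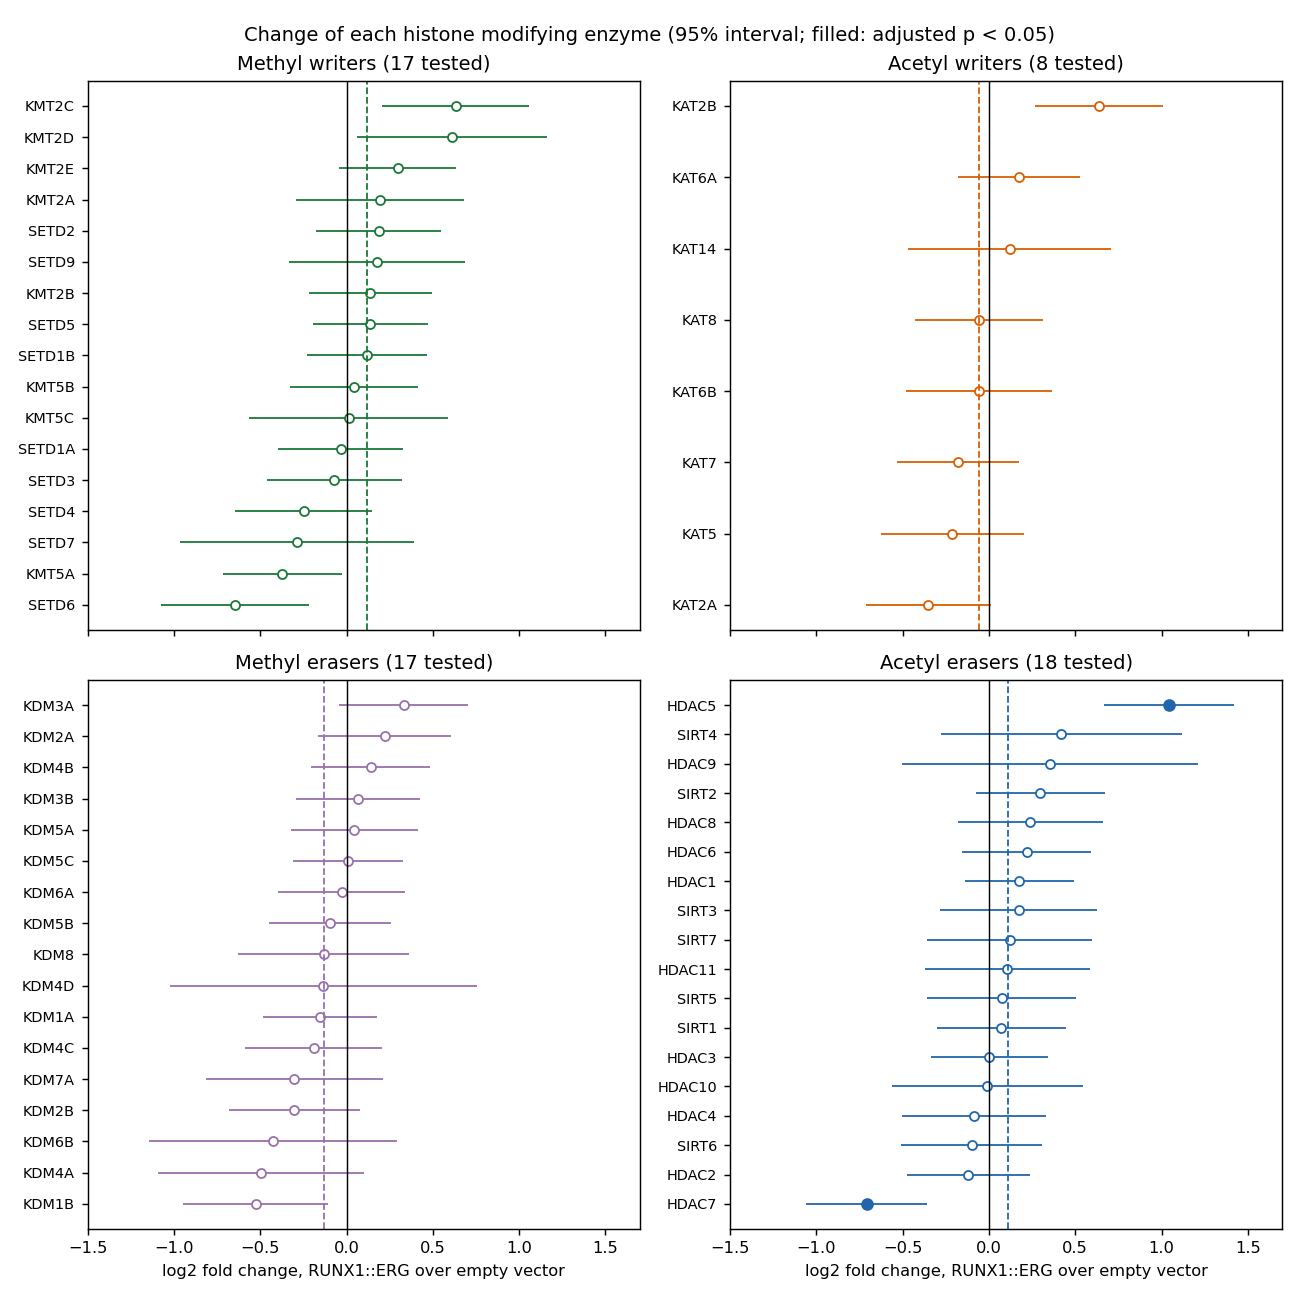
Log2 fold change of RUNX1::ERG over empty vector for the 60 tested enzymes, grouped by class, with points at the edgeR estimate and bars for the 95% interval. Most intervals include 0, while those of HDAC5 (1.04) and HDAC7 (-0.71), the members that passed the test, lie well to either side.

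The members that passed the test were both class IIa histone deacetylases, large proteins that shuttle between nucleus and cytoplasm on phosphorylation, bind MEF2 factors and have little deacetylase activity of their own. HDAC5 (gene number 10014, chr17:42154114-42201070, minus strand, GRCh37) was at 64.1 and 51.4 CPM in the EV libraries and at 124 and 114 CPM with RUNX1::ERG. Both RUNX1::ERG libraries lay far above both EV libraries, in which HDAC5 averaged 57.7 ± 9.03 CPM (SD, n = 2) against 119 ± 6.71 CPM (SD, n = 2). The transcript rose 2.06-fold (log2 fold change 1.04, SE 0.17, 95% interval 0.67 to 1.42, adjusted p = 0.00641). Of its canonical exon bases 23.4% overlap G6PC3, a glucose-6-phosphatase gene on the other strand, and the strand setting of the counting is not given in the sources used here. G6PC3 itself was at 38.5 and 35.8 CPM in the EV libraries and at 45.4 and 42.3 CPM with RUNX1::ERG (log2 fold change 0.24, SE 0.17, adjusted p = 0.522).

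HDAC7 (gene number 51564, chr12:48176505-48226915, minus strand, GRCh37), a class IIa member known from thymocytes, endothelium and B cells, went the other way. It was at 170 and 163 CPM in the EV libraries and at 110.5 and 93.8 CPM with RUNX1::ERG. Again the groups did not overlap, and its mean went from 167 ± 4.96 CPM (SD, n = 2) to 102 ± 11.8 CPM (SD, n = 2). HDAC7 fell to 0.612 of the EV level (log2 fold change -0.71, SE 0.16, 95% interval -1.06 to -0.36, adjusted p = 0.0309). The call rested on both RUNX1::ERG libraries, since without replicate 1 the adjusted p was 0.0648 and without replicate 2 it was 0.152, with log2 fold changes of -0.83 and -0.61. HDAC5 was called whichever of the 4 libraries was left out.

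The promoter of HDAC7 is shown as the start of the called gene for which RefSeq held a window, from 250 bases before to 50 bases after a transcript start. The 300 bases match the genome exactly once, at chr12:48213637-48213936 on the minus strand of GRCh37, inside the span of the gene, with 127 bases in annotated HDAC7 exons and 173 outside them. They are 74.7% G or C and hold 33 CpG pairs.
HDAC7 promoter: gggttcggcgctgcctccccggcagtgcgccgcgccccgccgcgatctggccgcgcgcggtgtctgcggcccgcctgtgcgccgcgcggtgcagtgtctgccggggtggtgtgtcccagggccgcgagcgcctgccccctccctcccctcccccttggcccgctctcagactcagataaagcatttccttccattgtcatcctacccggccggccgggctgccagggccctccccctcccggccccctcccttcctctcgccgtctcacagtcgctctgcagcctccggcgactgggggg
It is printed in lower case throughout because neither motif searched on both strands, TGTGGT for RUNX factors and CCGGAA for ETS factors, occurs in it, and nothing about either factor follows from that. RefSeq windows were found for 56 of the 62 members, 86 windows in all. The members with none were HDAC5, KAT6A, KAT8, KDM4E, SETD1B and SIRT7. TGTGGT was in 10 of the 86 windows (11.6%), against 13.1% of all 35093 promoter windows, and CCGGAA was in 22 (25.6%), against 17.3%. These are descriptions of letters and not of binding, and windows of 1 gene can share bases.

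The opposite changes altered the balance between the pair. The ratio of HDAC5 to HDAC7 per kilobase of exons was 0.491 and 0.41 in the EV libraries and 1.459 and 1.588 with RUNX1::ERG, so that HDAC5 went from below HDAC7 to above it. The mean ratio was 3.38-fold higher with RUNX1::ERG, a value that the choice of gene length cannot alter because length cancels out. That rise restates the opposite changes of the pair and is no separate result. Per kilobase of canonical transcript the ratio was 0.298 and 0.249 in the EV libraries and 0.887 and 0.965 with RUNX1::ERG, so on that length HDAC5 came close to HDAC7 without passing it. By the union of exons HDAC5 supplied 31.1% and 27.2% of the class IIa signal in the EV libraries and 56.5% and 57.6% with RUNX1::ERG. By canonical transcript length it supplied 21.9% and 18.9% in the EV libraries and 44.9% and 46.3% with RUNX1::ERG. On that length HDAC7 remained the largest with RUNX1::ERG, at 50.6% and 47.9%. The remaining class IIa genes contributed little and did not pass the test, HDAC4 with a log2 fold change of -0.09 (adjusted p = 0.878) and HDAC9, at 1.02 to 1.79 CPM, with 0.35 (SE 0.39, adjusted p = 0.717).

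**Figure D2:**
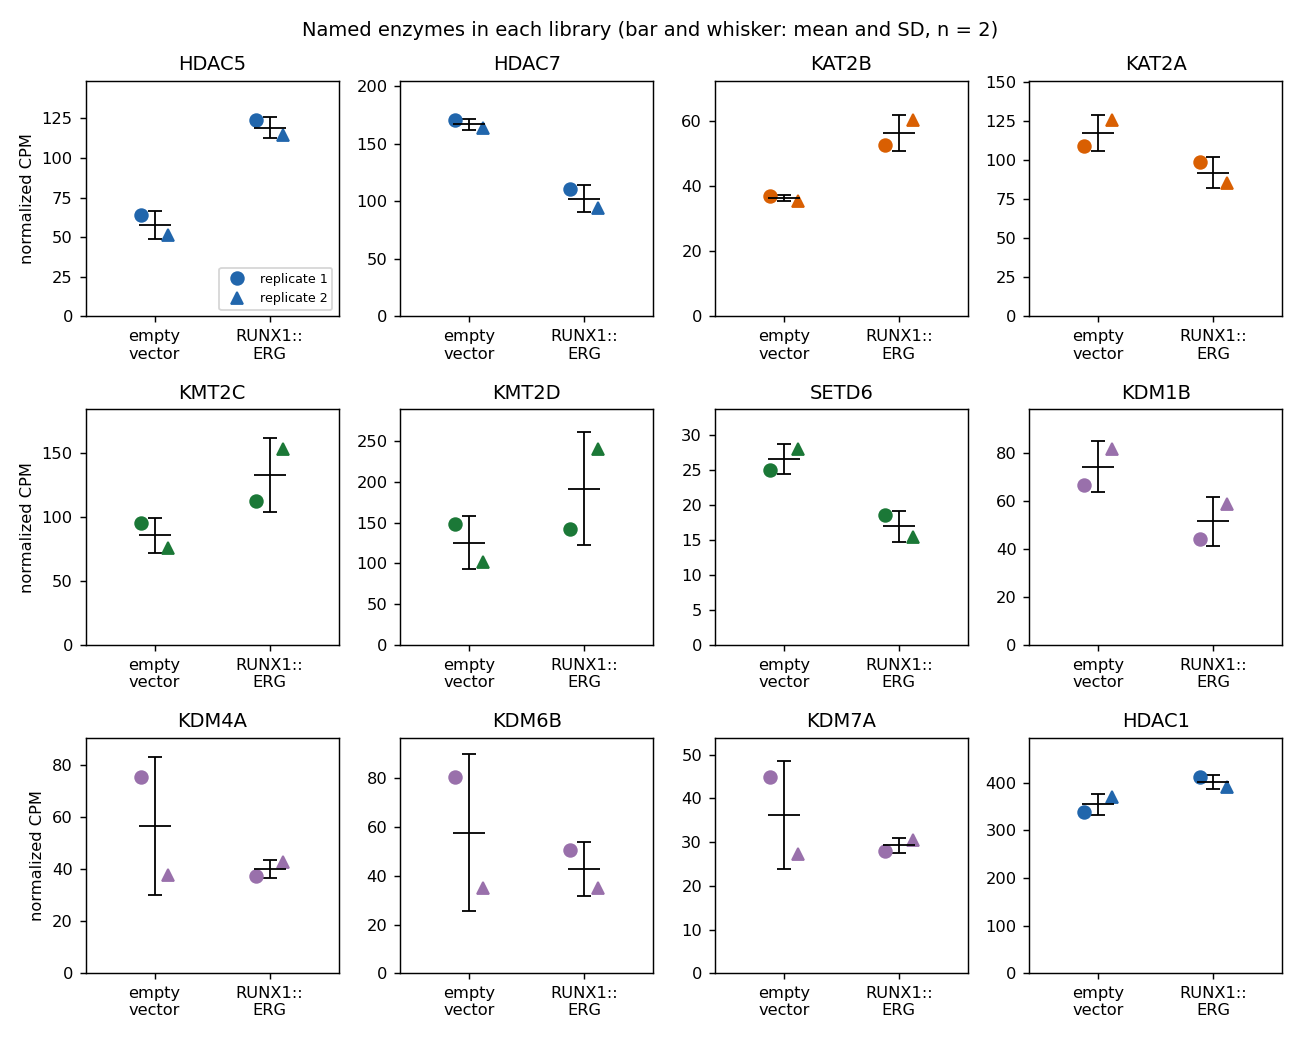
Normalised CPM of 12 members in each of the 4 libraries, with circles for replicate 1, triangles for replicate 2 and a bar and whiskers for the mean and SD of each group. HDAC5 sits higher in both RUNX1::ERG libraries (124 and 114 CPM) and HDAC7 lower (110.5 and 93.8 CPM), while KDM4A, KDM6B and KDM7A are highest in replicate 1 of the empty vector group.

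The class I deacetylases, of which HDAC1, HDAC2 and HDAC3 work in the SIN3, NuRD, CoREST or NCoR complexes, showed no member past the test. With 4.79% of all genes called, a class this small could hold few calls, so their absence says little about it. HDAC1 (chr1:32757684-32799236, GRCh37) was at 339 and 371 CPM in the EV libraries and at 412 and 390 CPM with RUNX1::ERG. The RUNX1::ERG libraries were the higher ones, by 0.18 on the log2 scale (SE 0.14, 95% interval -0.14 to 0.49, adjusted p = 0.594). HDAC3, the NCoR enzyme, was at 139.5, 140.4, 149 and 131 CPM in EV replicates 1 and 2 and RUNX1::ERG replicates 1 and 2, with overlapping groups and an interval of -0.34 to 0.34. HDAC1 made up 66.2% to 69.9% of the class I signal per kilobase of exons in every library, ahead of HDAC3 (20.1% to 23.4%), and by canonical transcript length it was again the highest. HDAC2 (-0.12, adjusted p = 0.779) and HDAC8 (0.24, adjusted p = 0.577) did not pass either. HDAC6, which deacetylates tubulin, HDAC10, which acts on polyamines, and HDAC11, which removes fatty acyl groups, had log2 fold changes of 0.22, -0.01 and 0.11, and every canonical exon base of HDAC10 is shared with other annotated genes.

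The 7 sirtuins, the NAD-dependent deacylases, were all detected and none passed the edgeR test. An unadjusted p under 0.05 was reached by 0, and 0 were called by DESeq2 or limma voom. Over all genes edgeR called 4.79%, and 18% had an unadjusted p under 0.05. Of the sirtuin log2 fold changes 6 were above 0 and 1 below, with a median of 0.12, where 7672 of all 15394 genes were above 0. SIRT4, a mitochondrial member, had the largest of these estimates, from 1.94 and 1.99 CPM in the EV libraries to 2.59 and 2.67 CPM with RUNX1::ERG (log2 fold change 0.42, SE 0.32, adjusted p = 0.556). SIRT1, the nuclear deacetylase of histones and p53, was at 46.3, 53.4, 49.3 and 55.4 CPM in EV replicates 1 and 2 and RUNX1::ERG replicates 1 and 2, with overlapping groups. SIRT7, found in the nucleolus, varied within the RUNX1::ERG group, at 69.4 and 43.3 CPM, by more than it did between the group means.

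Among the 8 acetyl writers no member passed the edgeR test and 1 (12.5%) had an unadjusted p under 0.05, against 4.79% and 18% of all genes. DESeq2 called 1 of them (7.29% of all genes) and limma voom called 0 (4.47%). The member with the largest change was KAT2B (gene number 8850, chr3:20081938-20195896, plus strand, GRCh37), also known as PCAF, an acetyltransferase of SAGA-type complexes. It was at 36.8 and 35.5 CPM in the EV libraries and at 52.4 and 60.1 CPM with RUNX1::ERG. The groups did not overlap and the means, 36.2 ± 0.92 CPM and 56.2 ± 5.46 CPM (SD, n = 2 each), differed 1.56-fold, yet the edgeR test missed the threshold (log2 fold change 0.64, SE 0.17, 95% interval 0.27 to 1.01, adjusted p = 0.059). KAT2B was called with DESeq2 (0.0179), upper quartile scaling (0.0495) and no filter on low counts (0.0224), but not with limma voom (0.0623), the other scalings (0.0515 and 0.0589) or any library left out (adjusted p from 0.0723 to 0.317).

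KAT2A (GCN5, chr17:40265129-40273385, GRCh37), the paralog that takes the same place in SAGA and ATAC complexes, had the lowest log2 fold change of the class. It was at 109 and 125.5 CPM in the EV libraries and at 99.0 and 85.1 CPM with RUNX1::ERG, so the RUNX1::ERG libraries were the lower ones (log2 fold change -0.35, SE 0.16, 95% interval -0.71 to 0.01, adjusted p = 0.292). The ratio of KAT2B to KAT2A per kilobase of exons was 0.244 and 0.205 in the EV libraries and 0.383 and 0.512 with RUNX1::ERG. It was 1.99-fold higher by its mean, with KAT2A above KAT2B in every library. A higher ratio follows from the choice of this pair, the highest and lowest log2 fold changes of the class. KAT2A shares 13.0% of its canonical exon bases with another annotated gene. The MYST enzymes KAT5, KAT6A, KAT6B, KAT7 and KAT8 ran from -0.21 to 0.17 in log2 fold change and ATAC's KAT14 stood at 0.12. KAT8 (MOF), which acetylates lysine on histone H4, was at 64.8 and 57.5 CPM in the EV libraries and at 63.4 and 54.2 CPM with RUNX1::ERG (log2 fold change -0.06, adjusted p = 0.915).

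No methyl writer passed the edgeR test among the 17, and limma voom called 0, against 4.79% and 4.47% of all genes. DESeq2 called 2 (7.29% of all genes), and 4 (23.5%) had an unadjusted p under 0.05, against 18% of all genes. KMT2C and KMT2D, the catalytic subunits of the COMPASS-type complexes that monomethylate histone H3 at enhancers, had the highest estimates. KMT2C (gene number 58508, chr7:151832007-152133729, GRCh37) was at 95.3 and 76.1 CPM in the EV libraries and at 112 and 153.5 CPM with RUNX1::ERG. Its groups did not overlap, though the RUNX1::ERG pair lay wide apart, and the 1.55-fold difference missed the threshold (log2 fold change 0.63, SE 0.19, 95% interval 0.21 to 1.06, adjusted p = 0.0963). DESeq2 gave an adjusted p of 0.048, edgeR with no filter 0.0114 and limma voom 0.107. With 1 library left out the KMT2C estimate ran from 0.38 (adjusted p = 0.507, without RUNX1::ERG replicate 2) to 0.84, and it was called without EV replicate 1 alone (0.80, adjusted p = 0.0129). Partial copies of KMT2C exist elsewhere in the genome, so its counts are less certain.

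KMT2D (gene number 8085, chr12:49412758-49454577, GRCh37) was at 149 and 102 CPM in the EV libraries and at 142 and 241 CPM with RUNX1::ERG. Its groups overlapped, with the high value in RUNX1::ERG replicate 2 alone, and the log2 fold change of 0.61 had an SE of 0.25 (adjusted p = 0.226). The KMT2D estimate rested on single libraries. It was 0.17 (adjusted p = 0.858) without RUNX1::ERG replicate 2 and 0.36 (adjusted p = 0.416) without EV replicate 2, but 0.94 (adjusted p = 0.0477) without replicate 1 of RUNX1::ERG and 0.90 (adjusted p = 0.0025) without EV replicate 1. KMT2A, the MLL1 gene, spanned 94.5 to 156 CPM with a log2 fold change of 0.20 (adjusted p = 0.727), and KMT2B, its close paralog, 134 to 169 CPM with 0.14 (adjusted p = 0.738). All 4 of these, and 7 of the 8 KMT genes in all, had estimates above 0, against 7672 of all 15394 genes tested. An unadjusted p under 0.05 was reached by 3 of the 8 (37.5%), against 18% of all genes. These were KMT2C, KMT2D and KMT5A, the 1 with an estimate below 0. Of the 8, edgeR and limma voom called 0 (4.79% and 4.47% of all genes) and DESeq2 called 1 (7.29%). KMT2E, a family member without known methyltransferase activity, stood at 0.30.

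SETD6 (gene number 79918, chr16:58549383-58557746, GRCh37), which methylates mainly non-histone proteins such as the RELA subunit of NF-kappaB, had the lowest estimate of the methyl writers. It was at 24.97 and 27.99 CPM in the EV libraries and at 18.5 and 15.3 CPM with RUNX1::ERG. Both RUNX1::ERG libraries were the lower ones (0.639 of the EV level, log2 fold change -0.65, SE 0.19, 95% interval -1.08 to -0.22, adjusted p = 0.0936), and SETD6 was called with DESeq2 (0.0291) and with no filter (0.0379) but not with limma voom (0.0913). Leaving out EV replicate 1 gave an adjusted p of 0.0418, and leaving out any other library gave 0.178 to 0.403. SETD6 shares 33.5% of its canonical exon bases with other annotated genes, among them CNOT1, whose log2 fold change was -0.01 (adjusted p = 0.989). KMT5A, which adds single methyl groups to histone H4 and is needed for chromosome compaction, was at 264 and 220.5 CPM in the EV libraries and at 188 and 186 CPM with RUNX1::ERG. Here too the groups did not overlap (log2 fold change -0.37, SE 0.16, 95% interval -0.72 to -0.03, adjusted p = 0.236). SETD1A, a SET1 COMPASS enzyme, at 117, 127, 131 and 107 CPM in EV replicates 1 and 2 and RUNX1::ERG replicates 1 and 2, and SETD2, which trimethylates histone H3 in transcribed gene bodies, at 112 to 147 CPM, showed overlapping groups. The SETD estimates were split, 4 above 0 and 5 below, with a median of -0.03.

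The methyl erasers gave no call in edgeR, DESeq2 or limma voom among 17 tested members, against 4.79%, 7.29% and 4.47% of all genes. An unadjusted p under 0.05 was reached by 1 member (5.88%), against 18% of all genes. That member was KDM1B (gene number 221656, chr6:18155560-18224085, GRCh37), the flavin-dependent demethylase LSD2 of histone H3. It was at 66.9 and 81.9 CPM in the EV libraries and at 44.4 and 58.9 CPM with RUNX1::ERG. The RUNX1::ERG libraries were the lower ones (log2 fold change -0.53, SE 0.19, 95% interval -0.95 to -0.11, adjusted p = 0.164), and with 1 library left out KDM1B ran from -0.76 to -0.34 (adjusted p = 0.657, without RUNX1::ERG replicate 1), called without EV replicate 1 alone (adjusted p = 0.045). Its paralog KDM1A (LSD1), the CoREST demethylase that holds back differentiation in acute myeloid leukaemia, was at 219 and 238 CPM in the EV libraries and at 198 and 213 CPM with RUNX1::ERG. Its difference was smaller (log2 fold change -0.15, SE 0.15, adjusted p = 0.673). KDM3A, an eraser of repressive histone H3 methylation, had the highest estimate of its class, from 44.6 and 53.9 CPM to 60.04 and 63.9 CPM (log2 fold change 0.33, SE 0.17, adjusted p = 0.345).

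EV replicate 1 was high for 3 demethylases, which are given here after their values were seen. KDM4A was at 75.2 CPM in that library and at 37.8 CPM in EV replicate 2, with 37.5 and 42.6 CPM in the RUNX1::ERG libraries. KDM6B, which removes repressive histone H3 marks from inducible genes, was at 80.3 CPM there and at 34.8, 50.6 and 34.9 CPM in EV replicate 2 and the RUNX1::ERG libraries. KDM7A was at 44.8 CPM there and at 27.4, 28.1 and 30.5 CPM in the other libraries in that order. Their log2 fold changes of -0.50, -0.43 and -0.30 did not pass the test (adjusted p = 0.383, 0.563 and 0.564) and became 0.08, 0.30 and 0.09 without that library. Without EV replicate 2 instead, KDM4A and KDM6B were both called, at -0.91. KDM4A shares 56.4% of its canonical exon bases with other annotated genes, so its counts are less certain.

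Levels of different genes were compared per kilobase of exons. HDAC1 was the highest of the acetyl erasers at a mean of 95.3 CPM per kilobase over the 4 libraries, followed by HDAC3 at 30.4. KMT5A led the methyl writers at 50.9, ahead of SETD1A at 17.2, and KAT2A led the acetyl writers at 27.7, ahead of KAT8 at 10.5. KDM5C, an X-linked demethylase of histone H3 at promoters, led the methyl erasers at 24.0, ahead of KDM3B at 17.2. With canonical transcript lengths, chosen after the data were seen because the union of exons was far longer for several members, HDAC1 and KMT5A kept the first place, but KAT8 came before KAT2A and KDM1A before KDM5C. KDM5C was steady at 298, 292, 302 and 291 CPM in EV replicates 1 and 2 and RUNX1::ERG replicates 1 and 2 (log2 fold change 0.01, 95% interval -0.31 to 0.32), as was KDM3B at 125, 139, 126 and 151 CPM in the same order. At the low end were HDAC9 at 0.0818 CPM per kilobase, SETD7 at 0.220 and KDM4D at 0.344.

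**Figure D3:**
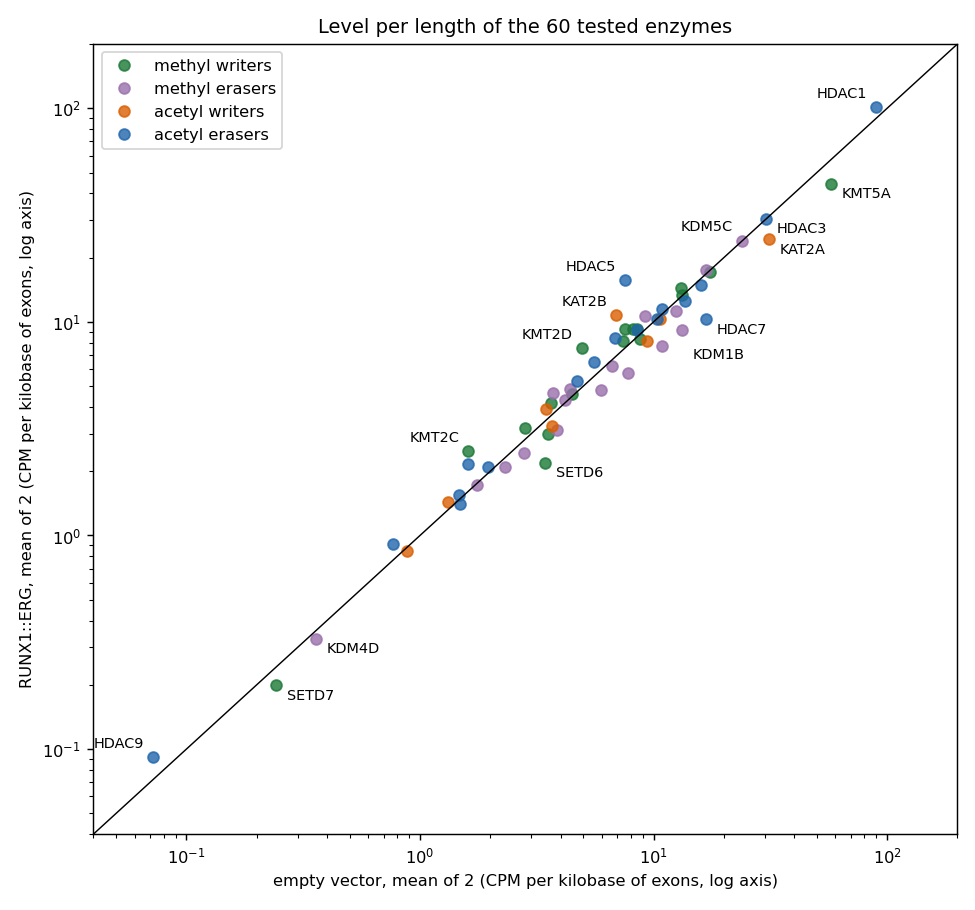
Mean level of each tested enzyme with RUNX1::ERG (vertical) against empty vector (horizontal), in CPM per kilobase of exons on log axes, coloured by class, with a line of equality. The levels span from HDAC9 (0.0818) to HDAC1 (95.3), and nearly all enzymes lie close to the line, with HDAC5 above it and HDAC7 below.

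Writers and erasers were then compared as groups. None of the 25 writers passed the edgeR test, with 5 (20%) at an unadjusted p under 0.05, 3 called by DESeq2 and 0 by limma voom. Among the 35 tested erasers there were 2 calls (5.71%), with 3 (8.57%) at an unadjusted p under 0.05. Over all genes edgeR called 4.79%, DESeq2 7.29% and limma voom 4.47%, and 18% had an unadjusted p under 0.05. The median log2 fold change was 0.04 for writers and 0.01 for erasers, against -0.00 over all genes. Groups did not overlap for 13 of the writers (52%) and 16 of the erasers (45.7%), against 47.1% of all genes. By mark, the medians were 0.12 for methyl writers, -0.13 for methyl erasers, -0.06 for acetyl writers and 0.11 for acetyl erasers. The signs were 11 above and 6 below 0 for methyl writers, 6 and 11 for methyl erasers, 3 and 5 for acetyl writers and 13 and 5 for acetyl erasers. Over all genes they were 7672 above and 7722 below 0. Without EV replicate 1 the methyl eraser median became 0.02 and the writer median 0.12, and without EV replicate 2 the methyl writer median became 0.03 and the writer median -0.02.

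In each library, the mean log2 CPM of writers was set against that of erasers. The difference over all members was 0.315 and 0.306 in the EV libraries and 0.281 and 0.386 with RUNX1::ERG, with overlapping groups and a mean shift of 0.023 beside a pooled replicate SD of 0.053. For the methyl enzymes it was 0.224 and 0.154 in the EV libraries and 0.331 and 0.346 with RUNX1::ERG. These groups did not overlap, and the mean rose from 0.189 ± 0.049 to 0.339 ± 0.011 (SD, n = 2 each), a shift of 0.15 on the log2 scale. For the acetyl enzymes it was 0.165 and 0.282 in the EV libraries and 0.02 and 0.204 with RUNX1::ERG, which overlapped, a shift of -0.112 beside a pooled replicate SD of 0.109. Leaving out replicate 1 of RUNX1::ERG gave a shift of 0.0754 over all members and -0.0194 for acetyl enzymes, and leaving out replicate 2 of that group gave -0.0296 and -0.204. The methyl shift ran from 0.115 to 0.184 with any 1 library left out. Its sign there was fixed in advance, because the groups do not overlap, so this adds nothing to that. The methyl shift holds for the members picked by symbol only. Of the 20 tested other histone methyltransferases 9 were above 0 and 11 below (median -0.11), and of the 6 tested other demethylases 5 and 1 (median 0.05). Groups that did not overlap were also common among single genes, at 47.1%. No p is given for the writer minus eraser scores, and 2 libraries against 2 could not go below 0.333 in a two-sided exact permutation test.

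**Figure D4:**
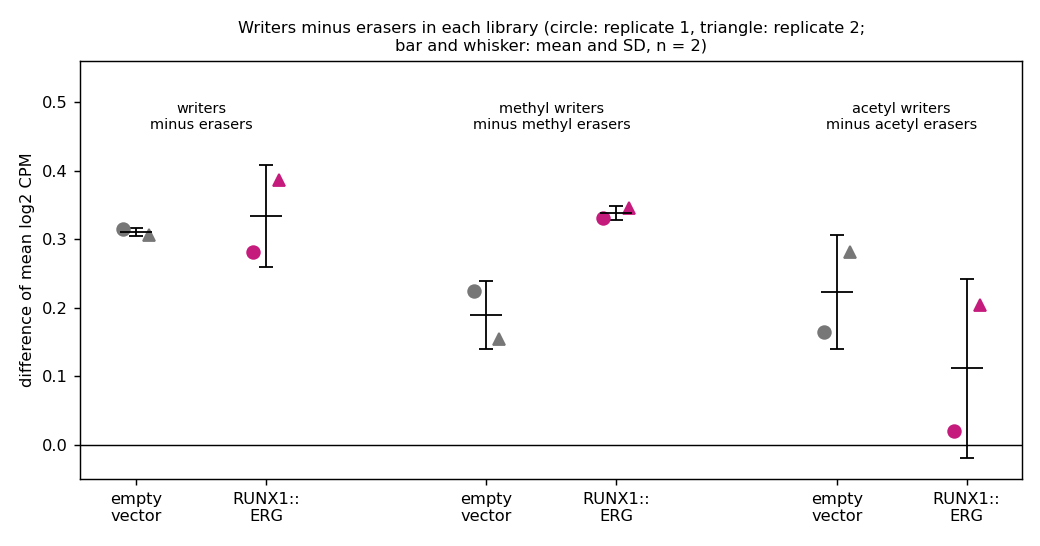
Mean log2 CPM of writers minus that of erasers in each library, for all members and for the methyl and acetyl enzymes apart, with 1 point per library. Only the methyl enzymes show groups that do not overlap (0.224 and 0.154 against 0.331 and 0.346).

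Few of the enzymes and subunits that work with the members, taken from lists of known complexes, were called in edgeR. Over all genes 4.79% were called and 18% had an unadjusted p under 0.05. Within a list 0% to 5.41% were called and 0% to 22.2% had an unadjusted p under 0.05. Only the other histone acetyltransferases lay above that 18%. Each list alone was short and could hold few calls. Median sizes of change ran from 0.07 to 0.26 on the log2 scale over these lists, against 0.24 over all genes. Groups did not overlap for 16.7% to 77.8% of a list, against 47.1% of all genes. Of the 20 tested other histone methyltransferases, which include EZH2, DOT1L and NSD1, 0 were called, with 2 at an unadjusted p under 0.05, 0 called by DESeq2 and a median log2 fold change of -0.11. The 6 tested other histone demethylases had 0 calls (1 unadjusted, 1 by DESeq2, median 0.05), and the 9 other histone acetyltransferases, EP300 and CREBBP among them, had 0 (2 unadjusted, 0 by DESeq2, median 0.13). Likewise 0 of 14 COMPASS subunits (1 unadjusted, 0 by DESeq2, median -0.04), 0 of 37 acetyltransferase complex subunits (2 unadjusted, 0 by DESeq2, median -0.06) and 0 of 16 acetyl-lysine readers (0 unadjusted, 0 by DESeq2, median -0.13) were called, and limma voom called none in any of these 6 lists.

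Deacetylase complex subunits were the list with calls, 2 of 37 (5.41%, near the 4.79% of all genes), both higher, with a list median of 0.03. RCOR2, a CoREST scaffold that joins HDAC1 or HDAC2 with KDM1A, was at 8.27 and 7.13 CPM in the EV libraries and at 23.4 and 16.6 CPM with RUNX1::ERG. Both RUNX1::ERG libraries were higher (log2 fold change 1.38, SE 0.24, adjusted p = 0.00839). ZMYM3, a zinc finger protein found with the same complexes, was at 70.9 and 69.8 CPM in the EV libraries and at 125 and 127 CPM with RUNX1::ERG. It also did not overlap between the groups (log2 fold change 0.84, SE 0.15, adjusted p = 0.011).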

How the data were processed

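RNA of 2 EV and 2 RUNX1::ERG samples of K562 cells was made into poly(A)-selected, paired-end libraries. The authors deposited raw read counts per gene and library, with no normalization. The submitters' processing notes name HISAT2 2.2.1, featureCounts 2.0.1 and hg19, and the annotation, strand setting and counting of mates are not given in the sources used here. Of counts from 1 to 10, between 66.7% and 68.9% were even in each library. Groups came from the sample labels.

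From the deposited counts, edgeR 4.0.16 in R 4.3.3 (filterByExpr, TMM scaling, quasi-likelihood test, Benjamini-Hochberg adjustment over 15394 genes, threshold 0.05) compared RUNX1::ERG with EV without covariates. The SE is the log2 fold change divided by the square root of F. The fitting code was tested on simulated data. CPM are counts per 1000000 after TMM. Levels per kilobase used GENCODE exons on GRCh37, and RefSeq names matched 92.2% of gene numbers. P-values measure only the spread between these samples, and replicates of a group differed by more than sampling noise (chi-square per degree of freedom 88.7 and 67.6). Alternatives were other scalings, filters, DESeq2 1.42.0 (the authors' tool), limma 3.58.1 voom, a replicate term, halved counts and each library left out.

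Members named with values were those called in any full fit, the 2 highest per length and the highest and lowest fold change of each class. Members of the other lists were named where called. Further members were named after their values were seen. The members and lists were chosen with earlier results of these data known. Other cell type markers summed to 25.2 to 37.0 CPM (T cell), 1.2 to 2.16 (B cell), 8.72 to 22.7 (monocyte or granulocyte, 2 called higher) and 80.1 to 87.5 (fibroblast or epithelial, 1 called higher), with CD8A, MS4A1 and KRT14 at 0. Of the erythroid markers 1 was called higher. Over 10% of canonical exon bases were shared with other genes for 13 members, whose counts are less certain. The HDAC and SIRT members among them were HDAC5, HDAC8, HDAC10 and SIRT5. The others were KAT2A, KAT5, KAT14, KDM2B, KDM4A, KDM8, KMT2A, KMT5C and SETD6.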

Additional observations from a re-analysis of the deposited data

How the results depend on the processing

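HDAC5 was called under every alternative, and HDAC7 under all but those that left out a RUNX1::ERG library. The 2 calls among members became 6 with no filter on low counts (adding KAT2B, KMT2C, KMT2D and SETD6) and 5 with DESeq2 (adding KAT2B, KMT2C and SETD6), and ran from 1 to 6 with 1 library left out. The 737 calls over all genes (560 higher, 177 lower) became 1500 with no filter (962 and 538) and 1194 with DESeq2 (398 lower), and library totals gave 103 lower. Without 1 library the calls ran from 286 to 1336, those higher from 228 to 922 and those lower from 58 to 602. A fit with 3 libraries assumes that the lone library of a group varies like the others.

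With the replicate number as a block, the calls were 1733 (1082 higher, 651 lower) over all genes and 6 among members, adding KAT2B, KDM1B, KMT2C and SETD6 to HDAC5 and HDAC7. Same-numbered libraries deviated together with r = 0.27 over 15394 genes, but the sources do not tie a number to a common batch or day, and the libraries were therefore not treated as pairs.

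Class medians without 1 library ran from -0.0225 to 0.12 for writers, -0.031 to 0.048 for erasers, 0.027 to 0.14 for methyl writers, -0.18 to 0.019 for methyl erasers, -0.099 to -0.0003 for acetyl writers and 0.064 to 0.17 for acetyl erasers. The methyl eraser median was above 0 without EV replicate 1 only, and the writer median below 0 without EV replicate 2 only. The shift of writers minus erasers was 0.079 over all members and 0.21 for methyl enzymes when members without an established histone substrate were left out. That grouping kept the class IIa deacetylases HDAC4, HDAC5, HDAC7 and HDAC9, despite their little activity. With 1 library left out the shift ran from -0.0296 to 0.0754 over all members, 0.115 to 0.184 for methyl and -0.204 to -0.0194 for acetyl enzymes. Per kilobase of canonical transcript HDAC1 stood at 178, KAT2A at 33.6, KDM5C at 50.9 and KMT5A at 77.3 CPM.

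Some log2 fold changes of members that were not called turned sign when 1 library was left out. They ran from -0.17 to 0.039 for KAT8, -0.0925 to 0.078 for HDAC3, -0.083 to 0.19 for KDM3B, -0.91 to 0.078 for KDM4A, -0.019 to 0.021 for KDM5C, -0.91 to 0.30 for KDM6B, -0.62 to 0.093 for KDM7A and -0.19 to 0.092 for SETD1A, which was also at 0.0099 with library totals. HDAC3 and KDM5C, near 0 throughout, were at -0.0088 and -0.0032 with DESeq2 size factors. The cause was not tested. With 2 libraries a group, no library could be tested as an outlier of its group.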
